A study of Homo sapiens with 8 samples.

Results

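The ATP-binding cassette (ABC) genes were examined in CTCFAID2 SEM cells, a human line of B-cell acute lymphoblastic leukemia, before and after the cells had become resistant to degradation of CTCF. Members were the protein-coding entries whose gene symbol begins with ABC followed by a subfamily letter from A to G and a number. The rule found 46 entries among 20004 protein-coding genes and among 60754 entries in all. They carry 45 symbols, since ABCF2 is listed under a pair of gene identifiers. A member was called expressed when its TPM, the length-scaled share of transcripts, reached 1 in at least 1 of the 8 libraries, and 22 of the 46 did so.

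Clones C17.2 and C3.2, each grown from a single sorted cell, had 2 libraries of parental and 2 of resistant cells. In all 4 groups both CTCF alleles carried a miniAID-mClover3 tag, the target of the degron system. The cells also held a lentiviral cassette in which the MND promoter drives OsTIR1(F74G) together with a Zeocin resistance gene. OsTIR1(F74G) is the mutant form of OsTIR1 that serves as the adaptor for the degradation. The cassette also carries a red fluorescent marker. Parental cells received neither compound. Cells of the resistant groups had been selected with 1 μM 5-Ph-IAA, the ligand that sets off degradation, and 100 μg/ml Zeocin, a DNA-cleaving antibiotic of the bleomycin family, up to day 36, and were off both compounds when collected. By the paper's account, resistant C17.2 had a truncated CTCF without the tag. Tagged CTCF, still open to degradation, returned beside it once the compounds were washed out. Resistant C3.2 had an amino acid change in the tag. The numbers that open the library titles run in a separate series for each clone, and no label says what they stand for, so a difference in level between clones cannot be told apart from a difference in handling, if there was one. No source used here says that the libraries of a group came from separate cultures, so the p-values measure only the spread between these libraries, which may be technical.

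ABC proteins share an ATP-binding domain. Most of them use ATP to move a substrate across a membrane, from lipids in the ABCA subfamily to drugs, glutathione conjugates and cyclic nucleotides in ABCB and ABCC and long fatty acyl chains in ABCD, while ABCE and ABCF proteins have no membrane domain and act on ribosomes. ABCB1 (P-glycoprotein), ABCC1 (MRP1) and ABCG2 (BCRP) are the pumps best known for exporting chemotherapy drugs from leukemia cells. Whether 5-Ph-IAA or Zeocin is carried by any of them was not measured.

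The libraries were total RNA depleted of ribosomal RNA, and the sequencing depth behind the TPM values is unknown. RNA of the tagged gene, CTCF, was at 32.17 to 35.39 TPM in the 4 parental libraries and at 41.49 to 54.73 TPM in the 4 resistant libraries, and it rose in C17.2 (log2 fold change 0.44, adjusted p = 0.000795) and in C3.2 (0.34, adjusted p = 0.0068). Protein-coding genes took 36.0% to 43.3% of the TPM, so the libraries were scaled to each other, with factors of 0.893 to 1.16, before log2(scaled TPM + 1) was tested in limma over 15614 genes. Fold changes below are on that scale, which understates the change of low genes, while levels are TPM as deposited, a measure per length of transcript. Of 12 B-lineage markers 9 were tested, and their summed level was 839.51 to 891.59 TPM in C17.2 parental, 780.40 to 784.92 TPM in C17.2 resistant, 827.22 to 880.45 TPM in C3.2 parental and 703.51 to 740.29 TPM in C3.2 resistant cells. CD79A, CD79B, IGLL1 and RAG2 fell in both clones, and in C3.2 VPREB1 fell and PAX5 rose (named after their values were seen). No B-lineage marker was at 0 in every library. Of the markers of other cells, CD3D, CD8A, FCGR3A, EPCAM, COL1A2 and DCN were at 0 in every library, and 5 were tested. The T and NK list (2 of 7 genes at 0) summed to 53.06 to 58.58 TPM in C17.2 parental, 52.36 to 53.61 TPM in C17.2 resistant, 54.25 to 56.68 TPM in C3.2 parental and 51.44 to 52.47 TPM in C3.2 resistant cells. Within it NKG7 rose in C17.2 (0.51, adjusted p = 0.00665), and TRAC fell in C17.2 (-0.42, adjusted p = 0.000667) and C3.2 (-0.22, adjusted p = 0.0186). The myeloid list (1 of 6 at 0) summed, in the same order, to 3.06 to 3.46, 2.84 to 4.99, 2.65 to 3.03 and 4.03 to 4.15 TPM, and CSF1R fell in C17.2 (-0.64, adjusted p = 0.0421). The epithelial and fibroblast list (3 of 6 at 0), almost all COL1A1, summed to 2.80 to 3.04, 6.5 to 7.52, 2.30 to 3.00 and 3.38 to 3.82 TPM, and COL1A1 rose in C17.2 (0.93, adjusted p = 0.00341). These markers too were named after their values were seen. The B-lineage sum was thus lower and the epithelial and fibroblast sum higher in resistant cells, where most ABC members were higher, and the part of these markers in the results below was not tested. In bulk samples, fewer cells of a type and less RNA per cell cannot be told apart.

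Expression was uneven across the subfamilies. ABCB, ABCE and ABCF were largely or wholly on, with 7 of 9, 1 of 1 and 4 of 4 entries expressed, and ABCD had 3 of 4. ABCC had 4 of 11 and ABCA 3 of 12, whereas none of the 5 ABCG genes reached 1 TPM. Levels in C17.2 parental cells ran from ABCE1, the ribosome recycling factor, at 36.2 ± 1.22 TPM (SD, n = 2), through ABCD4 at 28.9 ± 2.86 TPM and ABCA2 at 20.7 ± 0.481 TPM, down to ABCB1 at 0.575 ± 0.0778 TPM. ABCF1, ABCC1, ABCF3 and ABCA7 formed a block from 19.4 ± 1.83 to 15.9 ± 0.672 TPM, in which ABCC1, ABCF3 and ABCA7 lay within each other's spread. The order was much alike in C3.2 parental cells, headed by ABCE1 at 40.0 ± 1.16 TPM and ABCD4 at 25.5 ± 0.0636 TPM, with ABCF1 at 20.2 ± 0.240 TPM and ABCC1 at 18.2 ± 1.06 TPM further down. The expression threshold fell between ABCB1, whose highest library had 1.10 TPM, and ABCA10, whose highest had 0.79 TPM. ABCC2 was the next below, at 0.54 TPM.

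**Figure D1:**
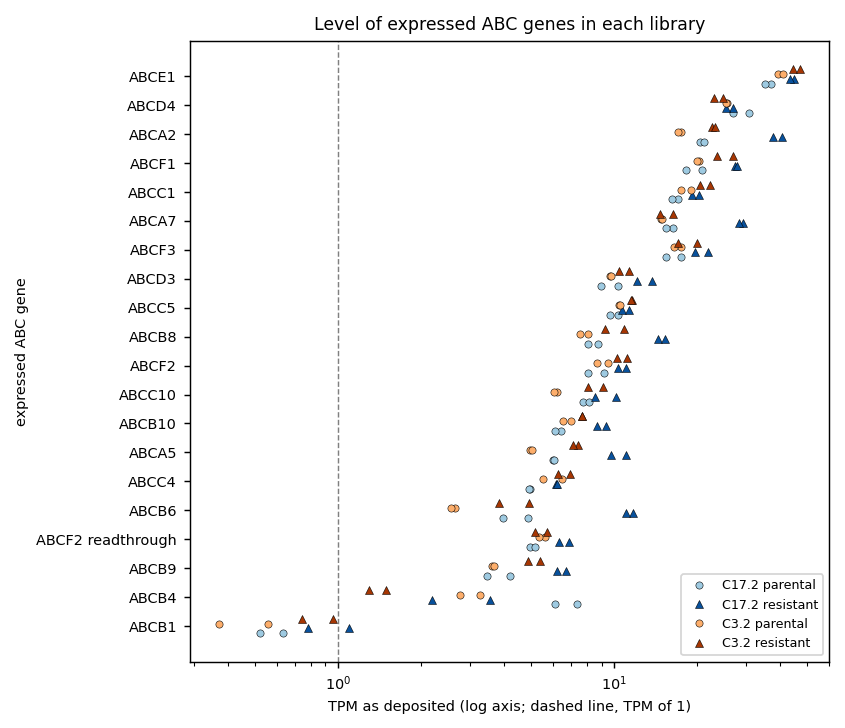
Level of 20 of the 22 expressed ABC entries in the 8 libraries, as TPM on a log10 axis, with 1 symbol per library colored by group. ABCE1 was highest in every group, and ABCB1, the lowest, reached 1 TPM in a single C17.2 resistant library.

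Of the classical drug pumps, ABCC1 was well expressed, ABCB1 lay at the edge of detection and ABCG2 was almost silent. ABCB1 was at 0.63 and 0.52 TPM in C17.2 parental cells and at 0.78 and 1.10 TPM in resistant cells. C3.2 held 0.56 and 0.37 TPM in parental cells and 0.74 and 0.96 TPM in resistant cells. Both resistant libraries lay above both parental libraries in each clone, yet neither difference passed the test. The log2 fold change was 0.22 in C17.2 (95% confidence interval -0.17 to 0.60, adjusted p = 0.359) and 0.33 in C3.2 (-0.059 to 0.71, adjusted p = 0.245), intervals that reach from a small loss to a moderate gain. Changes of this size start from under 1 TPM, where the added 1 compresses a fold change, and with a pseudocount of 0.1 the values were 0.47 and 0.71, again not past the threshold.

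ABCC1, which exports glutathione conjugates and organic anions, was at 17.06 and 16.22 TPM in C17.2 parental cells and at 19.17 and 20.34 TPM in resistant cells. Its C3.2 values were 17.42 and 18.92 TPM in parental cells and 20.40 and 22.29 TPM in resistant cells. The groups did not overlap in either clone, but the resistant libraries also had the larger scaling factors, and after scaling the log2 fold change was 0.081 in C17.2 (-0.090 to 0.25, adjusted p = 0.444) and 0.16 in C3.2 (-0.013 to 0.33, adjusted p = 0.209). Of the 8 processing alternatives, TPM as deposited brought it past the threshold in C17.2 (0.23, adjusted p = 0.049), as did leaving out resistant library 1 in C3.2 (0.25, adjusted p = 0.0483). ABCG2, a pump of stem-like cells, was at 0.10 and 0.08 TPM in C17.2 parental, 0.09 and 0.05 TPM in C17.2 resistant, 0.07 and 0.05 TPM in C3.2 parental, and 0.02 and 0.00 TPM in C3.2 resistant cells. In scaled TPM the resistant libraries lay below the parental ones in both clones. In a fit with no filter its log2 fold change was -0.036 in C17.2 (adjusted p = 0.484) and -0.078 in C3.2 (unadjusted p = 0.0264, adjusted p = 0.2), so neither passed, at levels a few steps of 0.01 TPM above 0. In the genome (GRCh38, Gencode release 44) ABCB1 lies at chr7:87503017-87713323 on the reverse strand, ABCC1 at chr16:15949138-16143257 on the forward strand and ABCG2 at chr4:88090150-88231628 on the reverse strand.

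**Figure D2:**
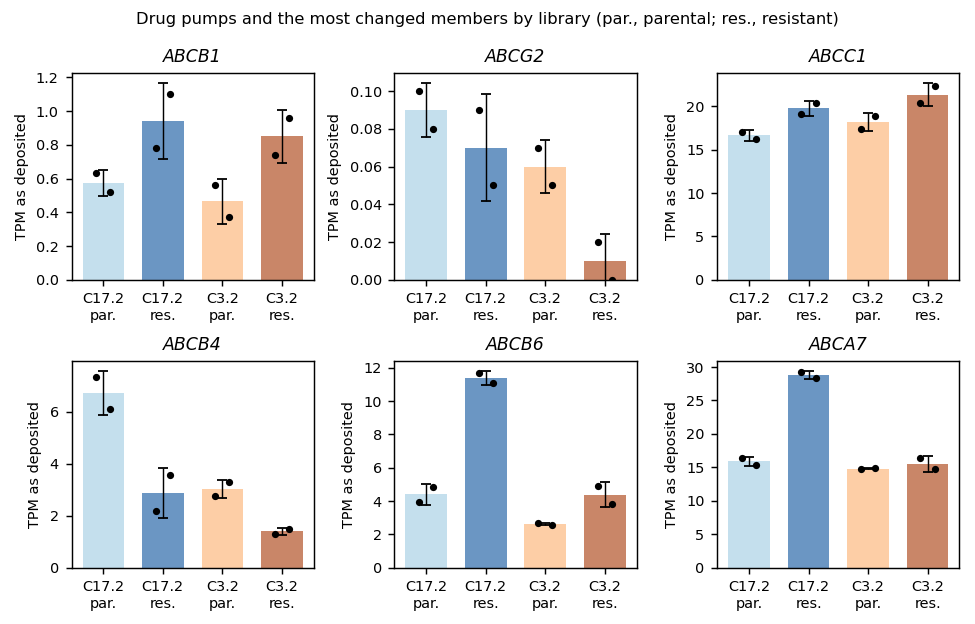
TPM of 6 ABC genes in the 4 groups; points are libraries, and bars are the mean with its SD over 2 libraries. Each panel has its own linear axis from 0, so ABCB1 and ABCG2, both near or under 1 TPM, are drawn far larger than ABCA7, whose C17.2 resistant libraries stand above the other 6.

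The promoter bases of ABCB1 are printed to show what lies before a gene of low output that has a pair of annotated starts. Each sequence is the 250 bases upstream of a RefSeq start (GRCh38.p14), written 5′ to 3′ on the gene's strand. RefSeq and Gencode starts can differ, so a window can reach into the Gencode span given for its gene. Capitals mark a GC box, GGGCGG, or a CCAAT box, CCAAT, read on either strand. The proximal window, chr7:87600885-87601134, holds 12 CpG dinucleotides and 2 CCAAT boxes, and the distal window, chr7:87713296-87713545, holds 1 CpG and neither box.
ABCB1 proximal start: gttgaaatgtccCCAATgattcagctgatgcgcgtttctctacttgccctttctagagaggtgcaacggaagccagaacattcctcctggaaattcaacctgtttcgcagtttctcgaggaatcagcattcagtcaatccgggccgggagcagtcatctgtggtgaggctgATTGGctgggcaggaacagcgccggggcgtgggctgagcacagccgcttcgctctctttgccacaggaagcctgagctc
ABCB1 distal start: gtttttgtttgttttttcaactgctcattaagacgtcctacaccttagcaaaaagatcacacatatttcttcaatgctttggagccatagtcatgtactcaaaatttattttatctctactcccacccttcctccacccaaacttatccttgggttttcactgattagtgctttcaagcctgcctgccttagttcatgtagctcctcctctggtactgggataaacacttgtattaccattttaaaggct
The deposited values are sums over transcripts, so the share of each start was not analysed here.

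Among the 22 expressed entries, 11 passed the threshold in C17.2, 8 of them higher and 3 lower in resistant cells. That is 50% of the entries, beside 27.3% of all tested genes (13.4% higher and 13.9% lower). The tested genes include non-coding ones and ones that reached 1 TPM in a single library, whereas the members are all protein-coding. No share matched for gene type and level was computed. In C3.2, 4 passed, 3 higher and 1 lower, which is 18.2% beside 11.4% of all genes (4.46% higher and 6.9% lower). The median log2 fold change of the 22 was 0.18 in C17.2 and 0.11 in C3.2, beside 0 for all genes in both, and 17 of the 22 were positive in each clone. The same 4 entries passed in both clones, ABCA2, ABCA5 and ABCB6 upward and ABCB4 downward. Over all genes 2.16% passed upward in both and 4.16% downward. In scaled TPM, the groups of C17.2 did not overlap for 16 entries that were higher and 4 that were lower in resistant cells, beside 33.3% and 32.7% of all genes, and those of C3.2 for 13 and 3 entries, beside 27.8% and 28.1%. In both clones at once this held for 11 higher and 3 lower entries of the 22, where all genes gave 13.9% and 15.4%. On this measure higher entries were each time a larger share of the 22 than of all genes, and lower entries a smaller one. The 4 calls of C3.2 were the weaker set. With the 4 libraries of that clone fitted alone none of them passed, at adjusted p of 0.111 for ABCA2, 0.0902 for ABCA5, 0.0861 for ABCB4 and 0.129 for ABCB6 (limma).

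**Figure D3:**
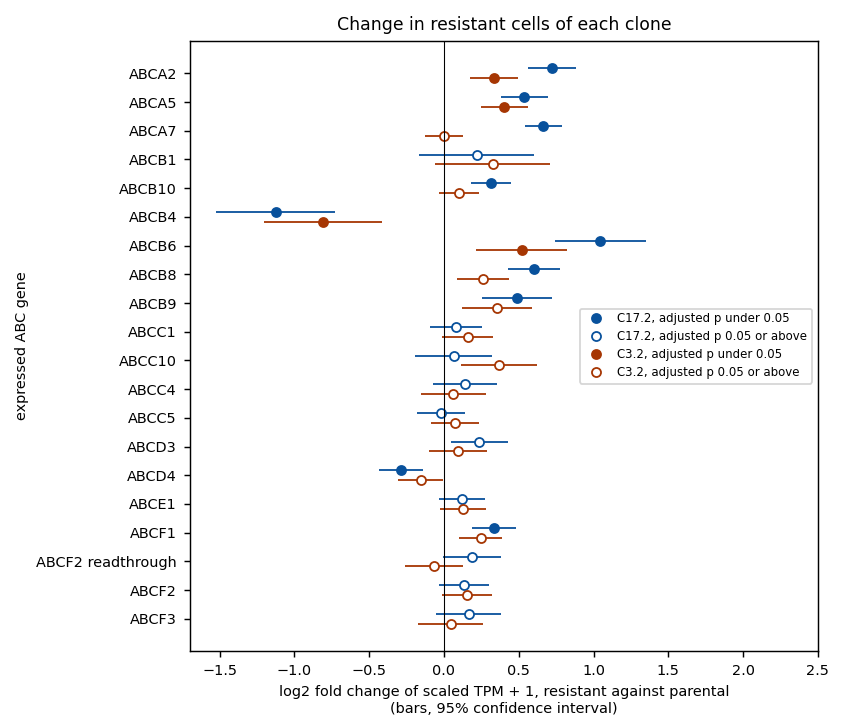
Log2 fold change of scaled TPM + 1 in resistant against parental cells for 20 of the 22 expressed ABC entries, with C17.2 in blue and C3.2 in orange; bars are 95% confidence intervals and filled points had an adjusted p under 0.05. ABCB6 and ABCB4 moved farthest in opposite directions, at 1.05 and -1.13 in C17.2. ABCA7 was the only entry whose change differed between the clones past the threshold.

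All 3 expressed ABCA genes rose in C17.2, and ABCA2 and ABCA5 rose in C3.2 as well. ABCA2, a lipid transporter of lysosomal and endosomal membranes (chr9:137007234-137028915, reverse strand), was at 20.39 and 21.07 TPM in C17.2 parental cells and at 37.47 and 40.47 TPM in resistant cells. In C3.2 it was at 17.42 and 16.98 TPM in parental and at 22.69 and 23.24 TPM in resistant cells. No libraries overlapped, and the log2 fold change was 0.72 (SE 0.067, adjusted p = 0.000762) in C17.2 and 0.33 (adjusted p = 0.0276) in C3.2. The change was 0.39 larger in C17.2 (95% interval 0.16 to 0.61), and that difference missed the threshold (adjusted p = 0.0539). The C3.2 call was lost without either C17.2 resistant library (adjusted p = 0.0575 and 0.0578), without either C3.2 parental library (0.104 and 0.142) and without C3.2 resistant library 2 (0.109).

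ABCA5, also a lipid transporter of endosomes and lysosomes (chr17:69244311-69327244, reverse strand), was at 6.02 and 6.08 TPM in C17.2 parental cells and at 9.72 and 11 TPM in resistant cells. Its C3.2 libraries gave 4.94 and 5.03 TPM in parental and 7.37 and 7.07 TPM in resistant cells. It rose by a similar log2 amount in both clones, 0.54 (SE 0.065, adjusted p = 0.00208) and 0.40 (adjusted p = 0.0149), with a difference of 0.13 that did not pass (adjusted p = 0.411). Without either C3.2 parental library (adjusted p = 0.0924 and 0.0892), or without its resistant library 2 (0.064), the C3.2 call was lost. ABCA5 heads a row of related genes on chromosome 17. Its neighbor ABCA10, which shares 318 exonic bases with it on the same strand, stayed at 0.10 to 0.79 TPM, ABCA6 at 0.06 to 0.40 TPM and ABCA9 at 0.06 to 0.18 TPM, and ABCA8 was at 0 in every library.

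ABCA7, a phospholipid transporter linked to phagocytosis and to Alzheimer's disease (chr19:1039997-1065572, forward strand), separated the clones. It was at 16.37 and 15.42 TPM in C17.2 parental cells and at 29.23 and 28.39 TPM in resistant cells. In C3.2 the values were 14.72 and 14.86 TPM in parental and 16.33 and 14.70 TPM in resistant cells, and the groups overlapped. The log2 fold change was 0.66 in C17.2 (SE 0.051, 95% interval 0.54 to 0.79, adjusted p = 0.000411) and 0.00052 in C3.2 (-0.12 to 0.13, adjusted p = 1). The difference between these changes was itself tested, and at 0.66 (0.49 to 0.84, adjusted p = 0.0047) ABCA7 was the only one of the 22 to pass, beside 9.9% of all genes (4.91% with the larger change in C17.2 and 4.99% with the smaller). Passing members were thus 4.55% of the 22, a smaller share than that of all genes. The 250 bases before the RefSeq start of ABCA7, chr19:1039857-1040106, are shown because it was the only member to pass this test. Part of this window lies inside the Gencode span given above. They hold 25 CpG dinucleotides, 1 GC box and 1 CCAAT box.
ABCA7: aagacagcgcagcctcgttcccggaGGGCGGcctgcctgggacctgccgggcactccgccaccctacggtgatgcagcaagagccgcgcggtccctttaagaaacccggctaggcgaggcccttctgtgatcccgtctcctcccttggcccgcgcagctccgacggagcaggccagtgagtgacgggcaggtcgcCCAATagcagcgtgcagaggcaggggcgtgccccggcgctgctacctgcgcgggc
Below the filter, ABCA1, the cholesterol exporter induced by liver X receptors, was at 0.52 and 0.26 TPM in C17.2 parental, 0.08 and 0.17 TPM in C17.2 resistant, 0.25 and 0.18 TPM in C3.2 parental, and 0.06 and 0.13 TPM in C3.2 resistant cells. It was lower without overlap in resistant cells of both clones, and in a fit with no filter its log2 fold change did not pass in C17.2 (-0.31, adjusted p = 0.0998) or C3.2 (-0.17, adjusted p = 0.449). ABCA3, ABCA4, ABCA12 and ABCA13 were under 1 TPM in every library.

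The ABCB subfamily moved in both directions. ABCB4 (MDR3), the phosphatidylcholine floppase of bile that is also expressed in B cells, lies next to ABCB1 on chromosome 7 (chr7:87401696-87480435, reverse strand) and fell in both clones. In C17.2 it went from 7.32 and 6.12 TPM in parental cells to 2.19 and 3.56 TPM in resistant cells. In C3.2 it went from 2.77 and 3.28 TPM to 1.3 and 1.49 TPM. The groups did not overlap in either clone, at a log2 fold change of -1.13 (SE 0.164, adjusted p = 0.00406) and -0.81 (adjusted p = 0.0292), and the clones did not differ past the threshold (-0.32, adjusted p = 0.441). ABCB1, close to ABCB4 in sequence and position, was not lower in any resistant group. The C3.2 call of ABCB4 was lost without either C17.2 parental library (adjusted p = 0.0746 and 0.0744) and without any C3.2 library (0.0828 to 0.155).

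ABCB6, a porphyrin-linked transporter of mitochondria, lysosomes and the cell surface that carries the Langereis blood group (chr2:219209772-219218994, reverse strand), rose most. It was at 3.97 and 4.86 TPM in C17.2 parental cells and at 11.68 and 11.08 TPM in resistant cells. In C3.2 it was at 2.66 and 2.57 TPM in parental and at 4.90 and 3.84 TPM in resistant cells. The log2 fold change was 1.05 (SE 0.126, adjusted p = 0.00203) and 0.52 (adjusted p = 0.0483), and the difference of 0.53 did not pass (adjusted p = 0.122). The C3.2 call was lost on leaving out any 1 of the 8 libraries (adjusted p = 0.0574 to 0.203). A same-strand coding entry of Gencode, ENSG00000284820, covers 54.6% of the exonic bases of ABCB6, so the split of reads between the entries is uncertain. That entry was at 0.61 and 0.79 TPM in C17.2 parental and at 1.52 and 1.01 TPM in C17.2 resistant cells. In C3.2 it was at 0.48 and 0.55 TPM in parental and at 0.75 and 0.69 TPM in resistant cells. Like ABCB6, it was thus higher in the resistant libraries of both clones. The bases before the RefSeq start of ABCB6, chr2:219218959-219219208, are shown as those of the member that rose most, and part of them lies inside its Gencode span. They hold 20 CpG dinucleotides, 2 GC boxes and 1 CCAAT box.
ABCB6: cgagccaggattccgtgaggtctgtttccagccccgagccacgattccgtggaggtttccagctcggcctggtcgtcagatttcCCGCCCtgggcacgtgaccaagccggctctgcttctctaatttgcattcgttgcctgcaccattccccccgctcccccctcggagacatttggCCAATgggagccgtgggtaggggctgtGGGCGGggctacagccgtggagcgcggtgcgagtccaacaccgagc

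The mitochondrial transporters ABCB8 and ABCB10 were higher in C17.2 resistant cells. ABCB8, linked to mitochondrial iron export and potassium channels, was at 8.76 and 8.05 TPM in C17.2 parental and 14.40 and 15.33 TPM in resistant cells, and rose (0.60, SE 0.072, adjusted p = 0.00197). ABCB10, an inner-membrane protein of heme synthesis, was at 6.40 and 6.12 TPM and then 8.67 and 9.31 TPM, and also rose (0.31, adjusted p = 0.00834). In C3.2 neither passed. ABCB8 was there at 8.07 and 7.55 TPM and then 10.85 and 9.23 TPM (0.26, adjusted p = 0.0667, or 0.0236 when rescaled), and ABCB10 at 6.51 and 6.97 TPM and then 7.63 and 7.62 TPM (0.099, adjusted p = 0.306). The ABCB10 rise was lost without C17.2 parental library 1 (0.0533).

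ABCB9, a lysosomal peptide transporter related to TAP, was at 4.21 and 3.46 TPM in C17.2 parental and 6.72 and 6.19 TPM in resistant cells. C3.2 gave 3.62 and 3.67 TPM in parental and 4.89 and 5.41 TPM in resistant cells. Resistant libraries were higher in both clones, and the test passed in C17.2 (0.49, adjusted p = 0.0122) and not in C3.2 (0.35, adjusted p = 0.0655, or 0.0329 when rescaled over protein-coding genes). The C17.2 call was lost without parental library 2 (0.0807) or resistant library 1 (0.0739). Parts of its exonic bases lie antisense to ARL6IP4 (12%, at up to 54.73 TPM), OGFOD2 (12.5%, up to 6.05 TPM) and the non-coding ENSG00000256028 (20.7%, up to 1.64 TPM). The strand setting of the counting is not given in the sources used here, so reads of ABCB9 and these genes may not be told apart. ABCB11, the bile salt pump, was at 0 in every library, and ABCB5 was at 0.01 TPM in 1 library.

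No ABCC gene passed in either clone, but some did on other scalings. TPM as deposited brought ABCC4 past the threshold in C17.2 (0.28, adjusted p = 0.0488) and ABCC10 in C3.2 (0.42, adjusted p = 0.0483), and TPM rescaled over protein-coding genes did so for ABCC10 in C3.2 (0.46, adjusted p = 0.0372). Beside ABCC1, ABCC4, which exports cyclic nucleotides and prostanoids, was at 4.92 to 6.91 TPM, ABCC5, a pump of nucleotide analogs, at 9.66 to 11.61 TPM, and ABCC10, a lysosomal and surface pump of taxanes, at 6.07 to 10.19 TPM. ABCC10 came nearest, from 6.20 and 6.07 TPM to 8.07 and 9.10 TPM in C3.2 (0.37, 95% interval 0.11 to 0.62, adjusted p = 0.0768), whereas in C17.2 the value was 0.064 (-0.19 to 0.32). ABCC4 gave 0.14 (adjusted p = 0.295) and 0.064 (adjusted p = 0.695) in C17.2 and C3.2, and ABCC5 gave -0.019 (adjusted p = 0.872) and 0.073 (adjusted p = 0.53). The intervals of ABCC1, ABCC4 and ABCC5 stayed between -0.18 and 0.35 in both clones. ABCC2, the apical pump of liver, was at 0.40 to 0.54 TPM in all libraries. ABCC3, ABCC8 (the sulfonylurea receptor) and ABCC12 were at 0 throughout, and ABCC6, ABCC9 and ABCC11 did not exceed 0.12 TPM.

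The ABCD and ABCF subfamilies each held 1 call, in C17.2, and ABCE none. ABCD4, which carries cobalamin out of lysosomes, was at 30.89 and 26.84 TPM in C17.2 parental and 26.98 and 25.45 TPM in resistant cells, values that overlap before scaling and not after it. It fell in C17.2 (-0.29, SE 0.062, adjusted p = 0.0172), and this call was lost on TPM as deposited (-0.13, adjusted p = 0.254), in a fit of the clone alone (adjusted p = 0.067) and without parental library 1 (0.093) or resistant library 2 (0.0817). In C3.2 it was at 25.59 and 25.50 TPM and then 24.79 and 23.06 TPM (-0.16, adjusted p = 0.165). ABCD3, a peroxisomal fatty acid transporter at 8.97 to 13.71 TPM, did not pass in either clone (0.24, adjusted p = 0.0739 in C17.2, and 0.092, adjusted p = 0.507 in C3.2), though it did in C17.2 on TPM as deposited (0.0186) and rescaled (0.0303), and ABCD2 was at 0.25 to 0.38 TPM.

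ABCF1, a partner of the initiation factor eIF2, was at 20.73 and 18.14 TPM in C17.2 parental and 27.37 and 27.93 TPM in resistant cells. Values in C3.2 were 20.35 and 20.01 TPM and then 26.96 and 23.59 TPM. It rose in C17.2 (0.33, adjusted p = 0.0089) and just missed the threshold in C3.2 (0.25, adjusted p = 0.0513), which it passed when rescaled over protein-coding genes (0.0162), under quantile normalization (0.0382) and with at least 1 TPM required in 2 libraries (0.048). The C17.2 call was lost without parental library 2 (0.0568) or resistant library 1 (0.0517). ABCE1, which splits ribosomes after termination, was at 35.31 to 40.81 TPM in the parental and 43.31 to 47.21 TPM in the resistant libraries, and after scaling its log2 fold changes of 0.12 and 0.13 did not pass (adjusted p = 0.207 and 0.253). ABCF3 and both ABCF2 entries, whose exons overlap and whose reads may be split between them, did not pass either, at values from -0.066 to 0.19. On TPM as deposited ABCE1 (adjusted p = 0.0135) and the ABCF2 entries (0.0459 and 0.0195) passed upward in C17.2.

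No ABCG gene was expressed. ABCG1, the cholesterol exporter of macrophages, did not exceed 0.03 TPM, ABCG4 0.02 TPM and ABCG8 0.01 TPM, and ABCG5, the sterol partner of ABCG8, was at 0. The summed TPM of all members, untested and unscaled, was 272.34 and 256.57 in C17.2 parental and 339.8 and 348.3 in C17.2 resistant cells, and 249.12 and 254.57 in C3.2 parental and 288.52 and 281.94 in C3.2 resistant cells. ABCA supplied the largest part of this difference in C17.2, from 43.83 and 43.41 TPM to 77.16 and 81.4 TPM. In C3.2 its sums were 37.93 and 37.52 TPM and then 47.01 and 45.89 TPM. ABCD sums overlapped between parental and resistant cells in both clones.

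**Figure D4:**
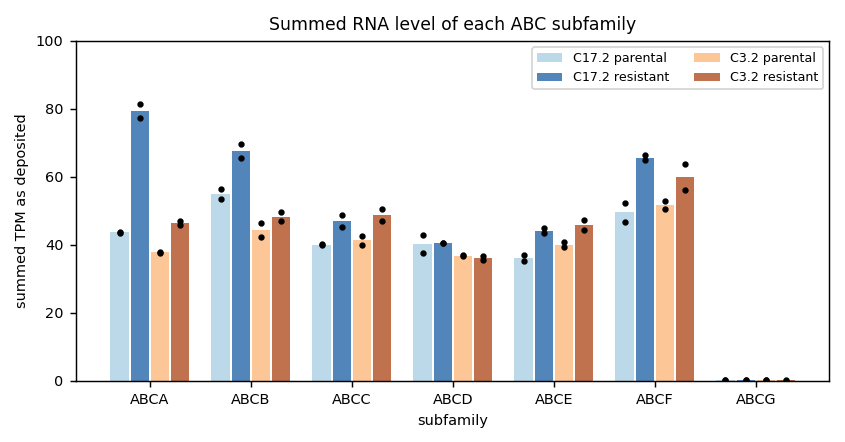
Summed TPM of each ABC subfamily in the 4 groups; bars are group means and points are the 8 libraries. ABCA shows the widest gap between C17.2 parental (43.83 and 43.41 TPM) and resistant (77.16 and 81.4 TPM) libraries, and ABCG stays near 0.

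Genes that work with the ABC members were counted in lists chosen with earlier results known, and each count stands beside the shares of all genes given above. Of 12 nuclear receptors that act on ABC genes 6 were tested, and 1 rose and 1 fell in C17.2 and none passed in C3.2. NR1I2 (PXR) and NR1I3 (CAR), the xenobiotic sensors that induce ABCB1, and NR1H4, PPARG and RXRG were at 0 in every library. VDR, the vitamin D receptor, fell in C17.2 from 1.86 and 1.84 TPM to 0.70 and 0.72 TPM (-0.80, adjusted p = 0.00344), and RXRB, a shared partner of these receptors, rose from 17.05 and 16.44 TPM to 22.81 and 22.73 TPM (0.27, adjusted p = 0.0069). Of 10 liver X receptor targets, which include the members ABCA1 and ABCG1, 6 were tested, none of them an ABC gene, with 1 higher and 2 lower in C17.2 and 0 higher and 3 lower in C3.2. SCD, the fatty acid desaturase, fell in C3.2 from 57.63 and 61.51 TPM to 35.56 and 37.69 TPM (-0.75, adjusted p = 0.00149) and not in C17.2 (-0.085, adjusted p = 0.334), and SMPDL3A, a phosphodiesterase, passed downward in C3.2 (-0.70, adjusted p = 0.0284), a call lost on TPM as deposited (0.0512), with no filter (0.064), and without either C17.2 parental library (0.0609 and 0.0609), either C3.2 parental library (0.0625 and 0.11) or C3.2 resistant library 2 (0.111). The others that passed, named after their values were seen, were LPCAT3 (higher) and MYLIP (lower) in C17.2 and SREBF1 (lower) in both clones.

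Among 9 ABC proteins under other symbols and other export pumps, 5 were tested, and 1 fell in each clone. TAP1, the peptide transporter of antigen presentation and relative of ABCB9, fell in C17.2 from 5.24 and 5.53 TPM to 3.37 and 4.04 TPM (-0.57, adjusted p = 0.00453) and did not pass in C3.2 (-0.21, adjusted p = 0.171). CFTR and the export pumps SLC47A1 and SLC47A2 were at 0. Of 17 glutathione S-transferases, which make the conjugates that ABCC1 exports, 9 were tested, with 4 higher in C17.2 and 3 higher and 2 lower in C3.2. GSTA4, which detoxifies lipid aldehydes, rose in both clones, from 5.61 and 5.53 TPM to 10.38 and 11.02 TPM in C17.2 (0.68, adjusted p = 0.00275) and from 2.84 and 3.30 TPM to 4.88 and 5.51 TPM in C3.2 (0.56, adjusted p = 0.0143). The C3.2 call of GSTA4 was lost without either C3.2 parental library (0.101 and 0.0623) and without resistant library 2 (0.0515). GSTM2 passed upward in C3.2 (0.48, adjusted p = 0.0367), a call lost on leaving out any 1 of the 8 libraries (0.0545 to 0.139), on TPM as deposited (0.0518) and with no filter (0.0973). Also past the threshold, named after their values were seen, were GSTP1, GSTZ1 and MGST3 (higher) in C17.2 and GSTZ1 (higher), MGST2 and MGST3 (lower) in C3.2.

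All 13 iron-sulfur and heme partners of the mitochondrial ABCB members were tested, and 3 rose and 2 fell in C17.2, and none passed in C3.2. NFS1, the cysteine desulfurase that supplies the sulfur, rose in C17.2 from 4.07 and 3.12 TPM to 8.84 and 8.54 TPM (0.94, adjusted p = 0.00198), and HSPA9, the mitochondrial chaperone, fell from 178.14 and 167.16 TPM to 110.11 and 122.68 TPM (-0.73, adjusted p = 0.00556), a call lost without parental library 1 (0.0507). FDX2 and GLRX5 (higher) and SLC25A37 (lower) passed as well and were named after their values were seen. All 12 ribosome recycling and translation partners of ABCE1 and ABCF1 were tested, with 3 higher and 2 lower in C17.2 and 0 higher and 2 lower in C3.2. The eIF2 subunits EIF2S3 (-0.77, adjusted p = 0.00011, and -0.28, adjusted p = 0.0121) and EIF2S2 (-0.65, adjusted p = 0.000386, and -0.34, adjusted p = 0.0111) fell in C17.2 and C3.2. Their C3.2 calls were lost on TPM as deposited (0.0631 and 0.0568) and without C3.2 parental library 1 (0.0743 and 0.0771), and that of EIF2S3 also without parental library 2 (0.0725), whereas EIF2S1, HBS1L and NEMF, named after their values were seen, were higher in C17.2. Of 12 peroxisome and cobalamin partners of ABCD genes 11 were tested, with 2 higher and 1 lower in C17.2 and 0 higher and 1 lower in C3.2. LMBRD1, the lysosomal partner of ABCD4, fell in C17.2 (-0.40, adjusted p = 0.00307). Its C3.2 call (-0.24, adjusted p = 0.0373) was lost under 6 of the 8 processing alternatives (0.0553 to 0.155) and without either C17.2 parental library (0.0773 and 0.0772) or any C3.2 library (0.0804 to 0.165). SCP2 (0.31, adjusted p = 0.00222) and ACAA1, the latter named after its value was seen, rose in C17.2. Neither potassium channel partner of ABCC8 and ABCC9 was tested.

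The promoters of expressed and low members differed in base composition, which the rule did not use. RefSeq promoter windows (250 bases, GRCh38.p14) were found for 35 of 45 symbols, and for 17 of the 21 expressed symbols. The 22 windows of expressed members had a median of 22.5 CpG dinucleotides (1 to 54) and 65.8% GC, and the 31 windows of low members had a median of 5 CpG (0 to 38) and 48.8% GC. All 35116 windows of the table had a median of 11 CpG and 58.0% GC. GGGCGG, on either strand, was found in 72.7% of the expressed and 29% of the low windows, beside 42.6% of all, and CCAAT in 27.3% and 16.1%, beside 32% of all. TATAAA was found in 9.09% and 12.9%, beside 10.7% of all, and the E-box CACGTG in 18.2% and 16.1%, beside 6.34% of all. The 6-base GGGCGG holds 1 CpG itself, so its count and the CpG count are not independent, and windows of the same gene can overlap. ABCA2 had the most CpG-rich window, with 54, and the distal window of ABCB1 the poorest among expressed members, with 1.

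**Figure D5:**
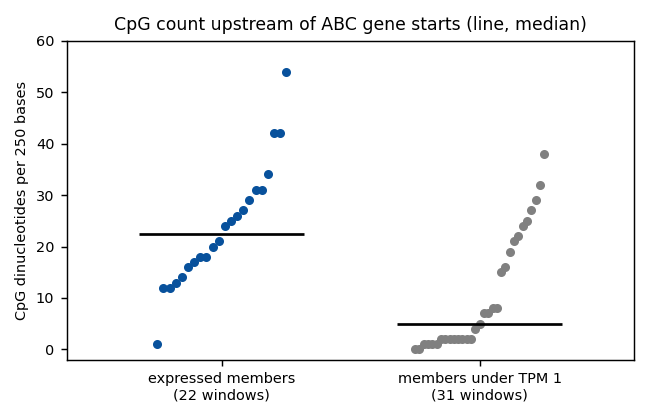
Number of CpG dinucleotides in each 250-base promoter window of the 22 windows of expressed and the 31 windows of low ABC genes; each point is a window and lines are medians, 22.5 and 5. Both groups span a wide range, and the ranges overlap.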

How the data were processed

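RNA-seq of 8 libraries was analyzed. The authors used TrimGalore 0.6.3 for trimming, STAR 2.7.9a for alignment to hg38 and RSEM 1.3.1 for quantification of Gencode genes. They deposited the TPM of each gene in each library, with no factor between libraries. The depth cannot be read from TPM, so no counting error can be given. The methods describe paired-end reads and the labels single-end reads, and the strand setting is not given in the sources used here.

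From the deposited TPM, genes with at least 1 TPM in at least 1 library were kept (15614 of 60754). Library factors were the trimmed mean of log2 ratios (30% of ratios and 5% of means trimmed). Log2(scaled TPM + 1) was tested, two-sided, in limma 3.58.1 (R 4.3.3) in a single model of the 4 groups with an intensity trend, with Benjamini-Hochberg adjustment over all tested genes at a threshold of 0.05. Resistant cells were compared with parental cells within each clone, and these changes were compared between clones. The study fitted limma-voom to counts, which was not repeated on TPM. An exact permutation test of 2 against 2 libraries cannot go below a p of 0.333. On simulated data of the C17.2 comparison (15614 genes, 200 changed by a log2 value of 1) the model recovered 86% of changed genes, with 7.53% of calls false. Noise was independent and normal, no other gene differed between groups, and only genes above a minimum level were changed. These rates therefore do not describe smaller changes, or data in which many more genes differ.

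The members and lists were chosen with earlier results of these data known. Values in every library were given for ABCB1, ABCC1, ABCG2 and each member past the threshold, and from each partner list the 2 genes with the largest change past the threshold were named. Marker lists covered B-lineage, T and NK, myeloid, and epithelial and fibroblast cells. Positions came from Gencode release 44, which matched 46 of 46 members by identifier, and promoter bases from RefSeq (GRCh38.p14). Values of some genes are not reported here, though counts include them. Tables and plots were made in Python 3.11.15 with pandas 2.3.3 and matplotlib 3.10.9.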

Additional observations from a re-analysis of the deposited data

Results flagged for a closer look

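ABCA7 changed differently between the clones, and the difference itself was tested. Its log2 fold change in resistant against parental cells was 0.66 in C17.2 and 0.00052 in C3.2, a difference of 0.66 (limma, Benjamini-Hochberg adjusted p = 0.0047). Both C17.2 resistant libraries (29.23 and 28.39 TPM) lay above both parental libraries (16.37 and 15.42 TPM), and the C3.2 groups overlapped. The test of the difference was passed by 4.55% of the tested members, beside 9.9% of all tested genes.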

How the results depend on the processing

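ABC members changed in C17.2 numbered 11, and 10 to 15 over 8 processing alternatives. On TPM as deposited 15 passed, 14 higher and 1 lower. In C3.2, where 4 passed, the count was 8 with TPM rescaled over protein-coding genes, 1 with no filter and 0 with the clone's 4 libraries fitted alone. For the difference between clones, where 1 passed, 2 passed on TPM as deposited and 2 with at least 1 TPM required in 2 libraries, with ABCA2 added. Over all genes in C3.2, the 1773 calls became 1173 with no filter and 74 with its libraries alone. TPM as deposited shifted the median of all genes by 0.13 in C17.2 and 0.053 in C3.2, and the median of the members was then 0.31 and 0.17. The split of all calls moved with the scaling. In C17.2 2094 higher and 2167 lower became 3849 and 1279 on TPM as deposited and 3133 and 1723 when rescaled. In C3.2 696 and 1077 became 716 and 523, 1703 and 725, and 787 and 763 under quantile normalization. Leaving out 1 library gave 8 to 11 member calls in C17.2, 0 to 3 in C3.2 and 1 to 1 between clones, and 2374 to 4551, 325 to 1785 and 541 to 1747 over all genes. In C3.2 the count was 0 without either parental library or without resistant library 2. It was 2 without any 1 C17.2 library. In C17.2 the calls of ABCA2, ABCA5, ABCA7, ABCB4, ABCB6 and ABCB8 held under all 8 alternatives and all 8 omissions. The ABCA7 difference between clones held at 0.62 to 0.76. Of the named partners, all C3.2 calls were lost with that clone's libraries alone, at adjusted p from 0.0629 for SCD to 0.155 for GSTM2. No called value changed sign. The cause of these shifts was not tested. No paired analysis was possible because parental and resistant libraries of a clone share no library number, the replicate numbers being given in accession order. Depth is unknown, and the smallest step, 0.01 TPM, limits what can be read from members such as ABCG2.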
